A study of Bos taurus with 18 samples.

Results

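The miR-181 family in cattle is represented by 4 mature miRNAs, bta-miR-181a, bta-miR-181b, bta-miR-181c and bta-miR-181d, and their rows were read by name from a table of 1071 miRNAs. All 4 passed the abundance filter in both plasma fractions. The study followed Japanese Black steers, castrated males of a Japanese beef breed, through the fattening period on one farm with the same feeding. Plasma from the jugular vein of the same 3 steers was sampled at about 20, 25 and 30 months of age, with no treatment named for any group. Each plasma sample gave 1 library of exosomal RNA (EX), from the small vesicles that cells release, and 1 library of non-exosomal free circulating RNA (FC), from what is left outside the vesicles. There were therefore 18 libraries, 9 EX and 9 FC, with 3 libraries (1 per steer) for each combination of fraction and age. The EX and FC libraries of a steer at one age share a plasma sample, and both were prepared with 1 kit, whose stated purpose is to keep the RNA of each fraction free of the other. How pure the fractions were was not tested here. Plasma holds no cells of its own, and in it fewer cells releasing a miRNA and less RNA released per cell cannot be told apart.

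A miRNA guides an Argonaute protein to messenger RNAs that pair with its seed, bases 2 to 8 from the 5′ end, and lowers their output. The miR-181 family is best known from lymphocytes. bta-miR-181a is the counterpart of the miRNA that is abundant in developing T cells of the thymus and sets how strongly the T cell receptor responds to antigen. Outside cells, miRNAs travel in vesicles or bound to proteins and lipoproteins, and much of what is found in plasma comes from blood cells, liver and vessel wall.

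The 4 sequences, as the authors deposited them, are shown because they decide which reads can be told apart and which targets are shared. The seed is in capitals.
bta-miR-181a: aACAUUCAacgcugucggugaguu
bta-miR-181b: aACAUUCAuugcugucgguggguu
bta-miR-181c: aACAUUCAaccugucggugaguuu
bta-miR-181d: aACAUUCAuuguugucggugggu
The seed ACAUUCA was shared by 4 of the 1071 miRNAs of the table, which are these 4. Positions are counted from 1 at the 5′ end. Between bta-miR-181a and bta-miR-181b, 3 of 24 bases differ (A9U, C10U and A21G, base of bta-miR-181a first). Between bta-miR-181b and bta-miR-181d, 1 of 23 compared bases differs (C12U, base of bta-miR-181b first). bta-miR-181c begins with bta-miR-181a without its base 11, which matches 23 bases and leaves 1 more at the 3′ end. Many of the deposited counts have fractions, which arise where 1 read is split over several matching miRNAs, so part of any member's count may belong to a near-identical member. In the RefSeq gene list of assembly ARS-UCD2.0, 6 genes encode the family. MIR181A-1 neighbours MIR181B-1, MIR181A-2 neighbours MIR181B-2 inside NR6A1 (a gene for a nuclear receptor), and MIR181C neighbours MIR181D inside NANOS3. A mature miRNA made by more than one gene has 1 row in the table, so the genes of bta-miR-181a and bta-miR-181b cannot be told apart here.

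The counts assigned to miRNAs ranged from 991354 to 2778618 per EX library and from 3615234 to 12088735 per FC library, and the lowest totals of both fractions were at 30 months. Values are given in CPM, counts per 1000000 counts assigned to miRNAs, with no scaling by length, since the members are 23 or 24 bases long. At these totals 3 counts, taken as the floor, make 1.08 to 3.03 CPM in an EX library and 0.248 to 0.830 CPM in an FC library. The floor covers counting error only, because reads copied from one molecule are not independent. At 30 months low counts were rare. Of the miRNAs with a count above 0, the lower quartile was 38.4 to 80.8 counts per EX library at 30 months, against 12 to 19 counts earlier, and 19 to 31 counts per FC library against 7 to 11.3 counts. A miRNA listed at 0 at 30 months is therefore not read against the floor of 3 counts. bta-miR-150 of lymphocytes, bta-miR-223 of myeloid cells and bta-miR-122 of liver had counts in all libraries, and none of them distinguishes vesicles from the plasma around them.

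In the EX libraries the row of bta-miR-181b did not hold 1 level, and this bears on every EX value of that member. In the EX libraries of steers 1 and 2 at 20 months this row held 332 and 250 CPM. In the other 7 EX libraries it held 3135 to 13829 CPM, and the step was the same in the count table and in the CPM table. The row of bta-miR-194, a miRNA of intestine and liver, held 5472 and 5793 CPM in the first 2 libraries and was listed at 0 in the other 7. The row of bta-miR-194b did the opposite, with 0 in the first 2 libraries and 125.6 to 369 CPM in the other 7. The sequences of these 2 miRNAs are shown because their rows move with that of bta-miR-181b, with the seed in capitals.
bta-miR-194: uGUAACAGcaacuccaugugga
bta-miR-194b: cACAUGGAguugcuguuaca
The reverse complement of bta-miR-194b is the first 20 bases of bta-miR-194, and neither shares the seed of the miR-181 family. Among all 1071 rows, 5 stepped by more than 4-fold, on the scale of CPM + 1, between these 2 and these 7 EX libraries with no overlap. They were the 3 rows just named and the low rows of bta-miR-12027 and bta-miR-6536, 2 miRNAs named here after their values were seen, which went from 4.32 to 9.74 CPM to 0.

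The levels of these rows were set against miRNAs that are read without a step. In the 9 FC libraries bta-miR-181b stood at 0.121 to 0.213 of bta-miR-181a, with a median of 0.157. In EX the ratio was 0.166 and 0.165 in the first 2 libraries and 1.06 to 20.2 in the other 7. In those 7 libraries the row of bta-miR-194b stood at 0.124 to 0.423 of bta-miR-181a. The values of steers 1 and 3 at 30 months, 0.423 and 0.246, were above the FC range. In FC bta-miR-194b itself was at 0 to 0.161 CPM. In mammals miR-194 is made together with miR-192 at one of its genes, and in FC bta-miR-194 stood at 10.4 to 21.4% of bta-miR-192. In EX that share was 13.6% and 15.99% in the first 2 libraries, and in the other 7 the row of bta-miR-181b stood at 10.8 to 17.99% of bta-miR-192. In these 7 libraries the rows of bta-miR-181b, bta-miR-194 and bta-miR-194b thus held values at about the levels of bta-miR-194, bta-miR-194b and bta-miR-181b, in this order. Levels alone do not establish which miRNA a row holds. How the rows came to hold these values was not tested. The EX row of bta-miR-181b is given below as deposited and, beside it, with the 3 rows exchanged in the 7 libraries, so that the row of bta-miR-194b is read as bta-miR-181b.

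**Figure D1:**
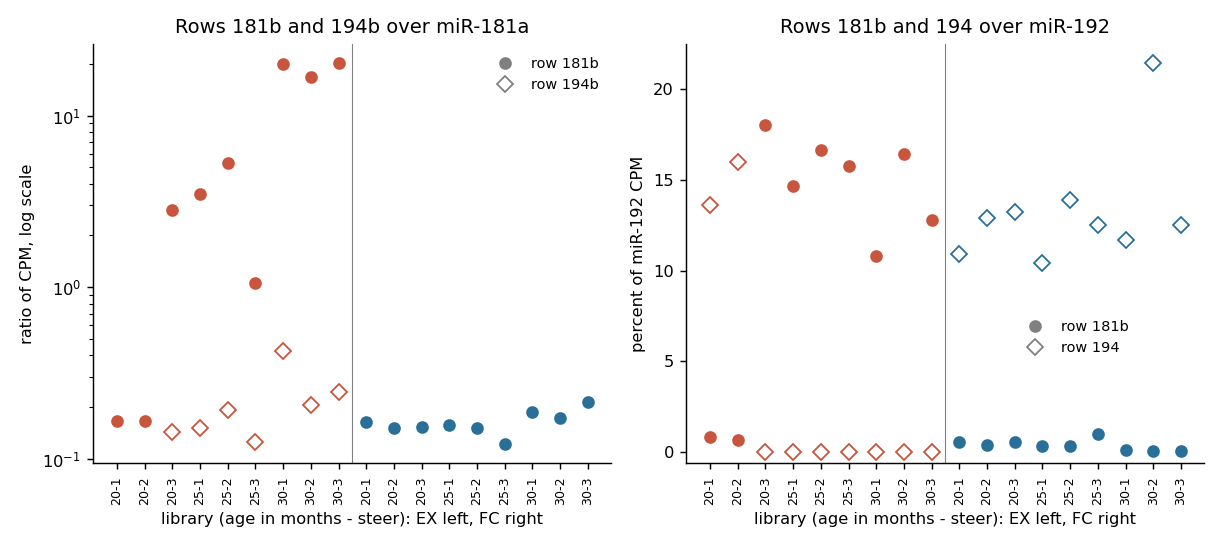
Left, the CPM of the rows of bta-miR-181b (filled circles) and bta-miR-194b (open diamonds) divided by that of bta-miR-181a in each library, on a log axis (ratios below 0.01 are not drawn). Right, the rows of bta-miR-181b (filled circles) and bta-miR-194 (open diamonds) as a percent of bta-miR-192 on a linear axis. EX libraries are red and FC libraries blue. In the last 7 EX libraries the row of bta-miR-181b lies between 1.06 and 20.2 times bta-miR-181a, while the row of bta-miR-194b lies between 0.124 and 0.423.

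bta-miR-181a, the most abundant member in FC, was lower in plasma at 30 months than at the earlier ages in both fractions. In FC it was 1863, 1554 and 1721 CPM at 20 months in steers 1, 2 and 3. At 25 months it was 1680.0, 1611 and 2476 CPM. At 30 months it was 610.4, 507 and 457 CPM. No 30 months library reached the level of any earlier one. The means were 1713 ± 154.8, 1922 ± 480.4 and 525 ± 78.2 CPM (SD, n = 3 each). In EX it was 1999.9, 1509 and 1687 CPM at 20 months, 1662, 1475 and 2963 CPM at 25 months, and 342.5, 820.3 and 510.3 CPM at 30 months. Here too the 30 months libraries lay below all 6 earlier ones, with means of 1732 ± 249, 2034 ± 811 and 558 ± 242 CPM (SD, n = 3 each). The 25 months sample of steer 3 held the highest value of bta-miR-181a in both fractions.

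bta-miR-181b, which differs from bta-miR-181a outside the seed, followed the same course in FC at a lower level. It was 303, 235 and 262 CPM at 20 months, 264, 244 and 300.5 CPM at 25 months, and 114, 87.8 and 97.5 CPM at 30 months. The 30 months libraries did not overlap with the earlier ones, and the means were 266 ± 34.4, 269.5 ± 28.6 and 99.6 ± 13.1 CPM (SD, n = 3 each). In EX the row as deposited held 332, 250 and 4720.5 CPM at 20 months, 5791, 7763 and 3135 CPM at 25 months, and 6859, 13829 and 10326 CPM at 30 months. With the rows exchanged, bta-miR-181b in EX was 332, 250 and 241 CPM at 20 months. It was then 250.2, 283 and 369 CPM at 25 months, and 145, 168 and 125.6 CPM at 30 months. Read in this way the 30 months EX libraries again lay below all 6 earlier ones.

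bta-miR-181c and bta-miR-181d, the pair encoded together, were rare. In FC bta-miR-181c was 13.7, 9.41 and 12.6 CPM at 20 months, 11.3, 12.2 and 10.9 CPM at 25 months, and 3.49, 4.15 and 5.26 CPM at 30 months, where the values rest on 15 to 20 counts. These FC values did not overlap between 30 months and the earlier ages either. In EX bta-miR-181c was 30.2, 15.1 and 17.8 CPM at 20 months, then 0, 10.9 and 6.97 CPM, and at 30 months it was listed at 0 in steers 1 and 2 and at 29.6 CPM, from 32 counts, in steer 3. The EX ages overlapped.

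bta-miR-181d, which differs from bta-miR-181b at 1 compared base, was 12.7, 5.40 and 11.7 CPM in FC at 20 months. At 25 months it was 10.6, 9.63 and 8.34 CPM, and at 30 months it was 6.77 CPM in steer 1 and listed at 0 in steers 2 and 3. In EX it was 5.36 CPM in steer 1 at 20 months and listed at 0 in the other two. At 25 months it was 15.1, 29.4 and 0.205 CPM, and at 30 months it was listed at 0 in all 3 steers. The EX values rest on at most 54 counts, and at 30 months few EX miRNAs had low counts of any kind, so no fold change is given for EX.

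**Figure D2:**
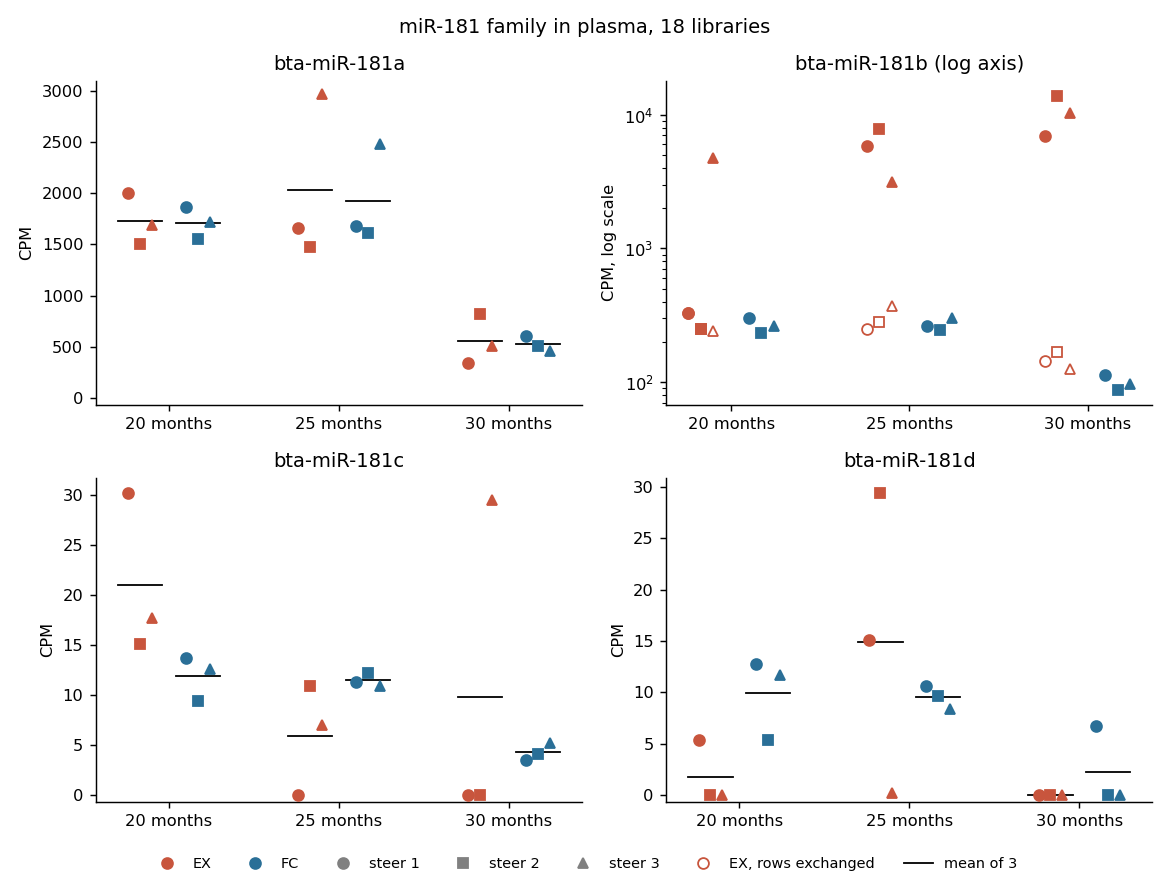
CPM of each member in the 18 libraries, by age, with EX in red and FC in blue and 1 symbol per steer. Black lines are means of 3 libraries, and bta-miR-181b is on a log axis without means, with open symbols for EX after the exchange of rows. bta-miR-181a lies at 342.5 to 820.3 CPM at 30 months and at 1475 to 2963 CPM at the earlier ages.

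The question of the study's design was how circulating miRNAs change over fattening, and the main comparison was 30 against 25 months. It was made with the quasi-likelihood test of edgeR, with age and steer in the model, and P values adjusted by Benjamini and Hochberg (FDR) over the 358 miRNAs kept in FC and the 345 kept in EX. A miRNA was called when its FDR was below 0.05 and its log2 fold change was beyond 1 in either direction. In FC, 2 of the 4 members were called, both lower at 30 months, beside 10.1% of all miRNAs called lower. bta-miR-181a fell by 2.01 on the log2 scale (SE 0.32, FDR 0.00902), which is 4.02-fold. bta-miR-181b fell by 1.58 (SE 0.28, FDR 0.0118), which is 2.98-fold. The log2 fold change of bta-miR-181c was −1.55 (SE 0.59) and missed the threshold (FDR 0.0893). That of bta-miR-181d was −3.29 (SE 1.45, FDR 0.135), with 2 of the 3 libraries at 30 months listed at 0. Without steer 1, whose library holds the 1 value above 0 at 30 months, bta-miR-181d was called (FDR 0.0424), against 30 months libraries that are then all at 0, and its log2 fold change was −2.13 without steer 2 and −2.28 without steer 3. DESeq2 called all 4 members lower in FC, beside 14.8% of all 358 miRNAs that it called lower.

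Within each steer the fall in FC had the same direction. CPM of bta-miR-181a at 25 months was 2.75, 3.18 and 5.42 times that at 30 months in steers 1, 2 and 3. For bta-miR-181b it was 2.32, 2.78 and 3.08 times, and for bta-miR-181c 3.23, 2.94 and 2.08 times. Without steer 3, whose 25 months sample was the highest, bta-miR-181a stayed called (log2 fold change −1.47, FDR 0.0321) and bta-miR-181b did not (−1.26, FDR 0.0561), while the number of all miRNAs called in FC went from 56 to 10.

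In EX at 30 against 25 months, 1 of the 4 members was called, beside 10.4% of all miRNAs called lower. bta-miR-181a fell by 2.37 on the log2 scale (SE 0.41, FDR 0.00794), which is 5.17-fold. CPM at 25 months was 4.85, 1.80 and 5.81 times that at 30 months in steers 1, 2 and 3. The call was lost without steer 1 (log2 fold change −2.33, FDR 0.0609) and without steer 3 (−1.88, FDR 0.0778), with 15 and 1 of all 345 miRNAs called in place of 49. The row of bta-miR-181b as deposited changed by 0.31 (SE 0.87, FDR 0.862). With the rows exchanged, bta-miR-181b fell by 1.55 (SE 0.43, FDR 0.0432) and was called, beside 11.3% of all miRNAs called lower in that fit. The row read as bta-miR-181b was chosen by its level beside bta-miR-181a, so its fall beside that of bta-miR-181a is no independent result. CPM at 25 months was then 1.73, 1.69 and 2.94 times that at 30 months in the 3 steers. bta-miR-181c (FDR 0.841) and bta-miR-181d (FDR 0.180) were not called by the quasi-likelihood test. The likelihood ratio test, which called more of all miRNAs, also called bta-miR-181d (FDR 0.0301), against 30 months libraries all listed at 0.

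TMM normalization rescales libraries by the bulk of their miRNAs, and the fold changes can be read against the median of all of them. In EX at 30 against 25 months the median log2 fold change over all 345 miRNAs was −0.51, and it was −0.04 when only library totals were used. The calls split into 13 higher and 36 lower with TMM, and into 21 and 21 with totals only. Relative to the median, the log2 fold change of bta-miR-181a in EX was −1.86. With totals only the log2 fold change itself was −1.86 (FDR 0.0185), which is −1.82 relative to the median of that fit. In FC the median was −0.20, and relative to it the values were −1.81 for bta-miR-181a and −1.38 for bta-miR-181b.

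The comparison of 30 with 20 months uses the same 30 months libraries, so it is no separate evidence on them. In FC, bta-miR-181a fell by 1.69 (SE 0.31, FDR 0.0270) and bta-miR-181b by 1.41 (SE 0.27, FDR 0.0270), and 2 of 4 members were called beside 4.19% of all miRNAs called lower. Both calls were lost without steer 1 (FDR 0.0800 for each) and without steer 2 (FDR 0.0624 and 0.0826). They were also lost with the displaced FC count rows, described under processing, left uncorrected (FDR 0.0651 for each). With 1 steer left out the log2 fold changes were −1.79 to −1.56 for bta-miR-181a and −1.46 to −1.32 for bta-miR-181b. bta-miR-181c (log2 fold change −1.47, FDR 0.143) and bta-miR-181d (−3.03, FDR 0.187) were not called. The latter was −2.21 without steer 2 and −1.89 without steer 3, without steer 1 it also missed the threshold (FDR 0.0800), and DESeq2 called it (FDR 0.0388), beside 9.78% of all miRNAs that it called lower. In EX, bta-miR-181a fell by 2.03 (SE 0.40, FDR 0.0135), beside 9.86% of all miRNAs called lower and a median of −0.64 over all of them (12 called higher and 34 lower, and 13 and 15 with library totals only). Relative to that median it was −1.39. This call was lost without steer 1 (FDR 0.113) and without steer 3 (FDR 0.0656), with log2 fold changes of −2.39 to −1.75 when 1 steer was left out. The row of bta-miR-181b in EX as deposited had a log2 fold change of 2.99 (SE 1.05, FDR 0.103), and without steer 3, whose 20 months library is the one of the 7 at that age, it was called (4.75, FDR 0.00637). With the rows exchanged the log2 fold change of bta-miR-181b was −1.18 (SE 0.43, FDR 0.0986).

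Between 20 and 25 months 0 of the 4 members were called in either fraction by edgeR, beside 0.29% of all miRNAs in EX and 0.0% in FC. DESeq2 called 0 members too, beside 0.87% of all miRNAs in EX and 0.0% in FC. At an unadjusted P below 0.05 there were 8 miRNAs (2.32%) in EX and 13 (3.63%) in FC, among them 1 row of the family, that of bta-miR-181b in EX as deposited. The log2 fold change of bta-miR-181a was 0.34 (SE 0.39) in EX and 0.31 (SE 0.31) in FC. That of bta-miR-181b in FC was 0.16 (SE 0.27). The row of bta-miR-181b in EX as deposited had 2.69 (SE 1.08, FDR 0.998) and was called without steer 3 (4.55, FDR 0.0114), and with the rows exchanged it had 0.36 (SE 0.43). That of bta-miR-181c in FC was 0.08 (SE 0.57).

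Libraries can also be compared without a fit. bta-miR-181a, bta-miR-181b and bta-miR-181c lay lower in all 3 FC libraries at 30 months than in all 6 earlier ones, as did 18.2% of the 358 miRNAs kept. In EX only bta-miR-181a did so as deposited, beside 14.8% of the 345 miRNAs kept, and bta-miR-181a and bta-miR-181b did so with the rows exchanged, beside 15.1%.

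**Figure D3:**
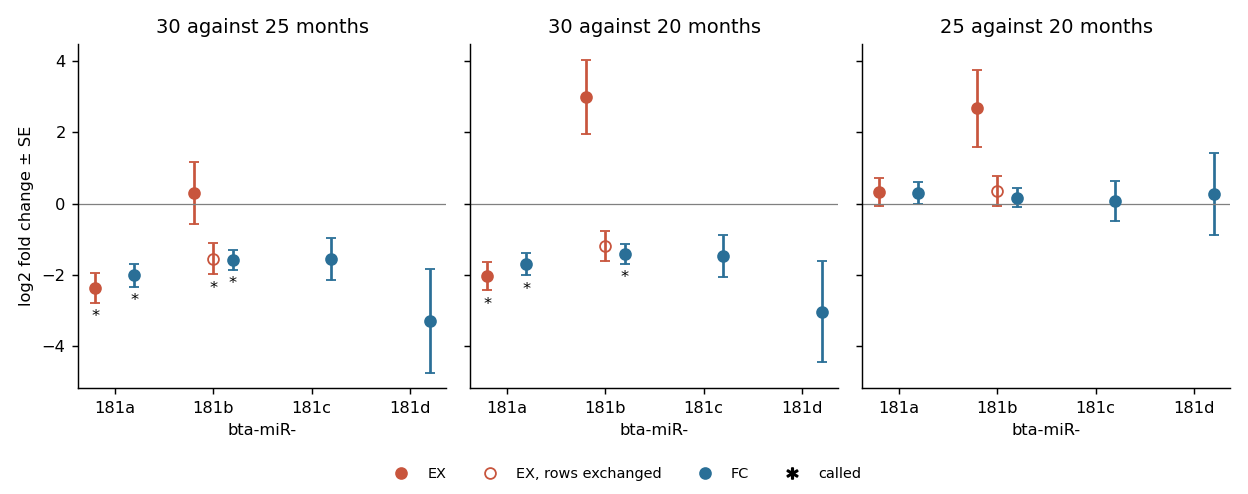
Log2 fold change ± SE of each member between ages from the edgeR fits, with EX in red, FC in blue and an open circle for bta-miR-181b in EX after the exchange of rows. An asterisk marks a call, and the EX values of bta-miR-181c and bta-miR-181d, which rest on several libraries listed at 0, are not drawn. At 30 against 25 months the called values lie between −2.37 and −1.55.

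bta-miR-181a made up most of the family in FC, at 81.6 to 88.6% of the summed CPM of the 4 members. In EX with the rows exchanged its share was 70.3 to 88.7%, while as deposited the row of bta-miR-181b exceeded bta-miR-181a in 7 of the 9 EX libraries. The family sum in FC was 1803 to 2192 CPM at 20 months, 1877 to 2795 CPM at 25 months and 560 to 734 CPM at 30 months. In EX with the rows exchanged it was 1774 to 2367, 1798 to 3339 and 487 to 988 CPM. The ratio of bta-miR-181b to bta-miR-181a in FC was 0.155 ± 0.00641 at 20 months, 0.143 ± 0.0192 at 25 months and 0.191 ± 0.0205 at 30 months (SD, n = 3 each). All 3 ratios at 30 months, 0.173 to 0.213, were above all 6 earlier ones, 0.121 to 0.163. In EX with the rows exchanged the ratios were 0.204 to 0.423 at 30 months and 0.124 to 0.192 before, which is a description only, since the row was chosen by its level beside bta-miR-181a. In FC, P was 0.1 in an exact two-sided permutation test of 30 against 25 months, the smallest P that 3 against 3 libraries allow, so the test could not pass 0.05. The test did not pair the libraries by steer. P was 0.15 after adjustment over the 6 comparisons of ages computed in both fractions.

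EX and FC were compared at each age over the 330 miRNAs kept in both, with steer in the model. bta-miR-181a did not differ beyond its error at any age. The log2 difference, EX minus FC, was −0.01 (SE 0.38) at 20 months, 0.08 (SE 0.38) at 25 months and −0.21 (SE 0.39) at 30 months. The row of bta-miR-181b as deposited was called higher in EX at 25 months (log2 difference 4.37, FDR 0.00372) and at 30 months (6.40, FDR 1.58e-04), and 1.82% and 15.2% of all miRNAs were called at these ages. The call at 25 months was lost without steer 1 (log2 difference 4.45, FDR 0.157) and without steer 2 (4.19, FDR 0.0993), while that at 30 months was kept with any 1 steer left out (5.91 to 6.52). At 20 months, where 1.21% of all miRNAs were called, 0 of the 4 members were called by edgeR, and DESeq2 called the same row as deposited (FDR 0.0311), beside 2.12% of all miRNAs. At 25 and 30 months these values compare the row that stands at the level of bta-miR-194 in EX with bta-miR-181b in FC. At 20 months only the EX library of steer 3 (4720.5 CPM) stands at that level. Those of steers 1 and 2 (332 and 250 CPM) stand at the level of bta-miR-181b. With the rows exchanged the differences were 0.06 (SE 0.31), 0.25 (SE 0.31) and 0.11 (SE 0.31) at 20, 25 and 30 months, and 0 of the 4 members were called at any age or had an unadjusted P below 0.05, which 8.16%, 6.95% and 33.2% of the 331 miRNAs in that fit had. The row read as bta-miR-181b in EX was chosen by its level beside bta-miR-181a, as in FC, so these small differences are no independent result. At 30 months the calls over all miRNAs were 7 higher and 43 lower in EX with TMM, and 19 and 35 with totals only. In the fit with rows exchanged 0.906%, 0.906% and 17.5% of 331 miRNAs were called by edgeR at 20, 25 and 30 months.

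Whether the fall from 25 to 30 months differed between the fractions was tested as an interaction. 0 of the 4 members were called by edgeR, beside 7.58% of all miRNAs, and 0 by DESeq2, beside 11.5%. At an unadjusted P below 0.05 there was 1, the row of bta-miR-181b as deposited, beside 16.1% of all miRNAs. The calls over all miRNAs were 3 higher and 22 lower, and 5 and 17 with totals only. The difference of the 2 log2 fold changes, EX minus FC, was −0.29 (SE 0.54, FDR 0.846) for bta-miR-181a, and −1.11 to −0.32 with 1 steer left out, with FDR of 0.424 or more. For the row of bta-miR-181b it was 2.03 (SE 0.95, FDR 0.311) as deposited and −0.14 (SE 0.44, FDR 0.911) with the rows exchanged, where the choice of the row by its level beside bta-miR-181a bears on the value.

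The miRNAs whose course over the 9 libraries of a fraction was most like that of bta-miR-181a are given as a description. The measure was Pearson's r of log2(CPM + 1), and the 9 libraries share steers and the drop in depth at 30 months. The choice favours miRNAs that fall with bta-miR-181a at 30 months, so the falls and FDR given below are no independent result. In FC the 5 non-members were bta-miR-32 (r 0.99), bta-miR-150 (0.98), bta-miR-139 (0.98), bta-miR-92a (0.98) and bta-let-7g (0.97), and bta-miR-181b reached 0.99, bta-miR-181c 0.92 and bta-miR-181d 0.84. bta-miR-150, a miRNA of mature lymphocytes, went from a mean of 111568 CPM at 25 months to 11855 CPM at 30 months in FC (log2 fold change −3.38, SE 0.62, FDR 0.0136). bta-miR-92a, from a cluster active in dividing blood cells, went from 12589 to 4868 CPM (−1.51, SE 0.28, FDR 0.0136). In EX the 5 were bta-miR-374a (0.96), bta-miR-28 (0.95), bta-miR-2285bf (0.95), bta-miR-1277 (0.92) and a candidate miRNA numbered 6 in the authors' table (0.92). Of these, bta-miR-1277 and the candidate were listed at 0 in all EX libraries at 30 months. bta-miR-374a went from 719 to 103 CPM in EX (log2 fold change −3.31, SE 0.43, FDR 0.00295). In EX the row of bta-miR-181b as deposited had r −0.47 with bta-miR-181a, and 0.94 with the rows exchanged, a value that the choice of the row favours. bta-miR-181c and bta-miR-181d had 0.34 and 0.35 there.

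**Figure D4:**
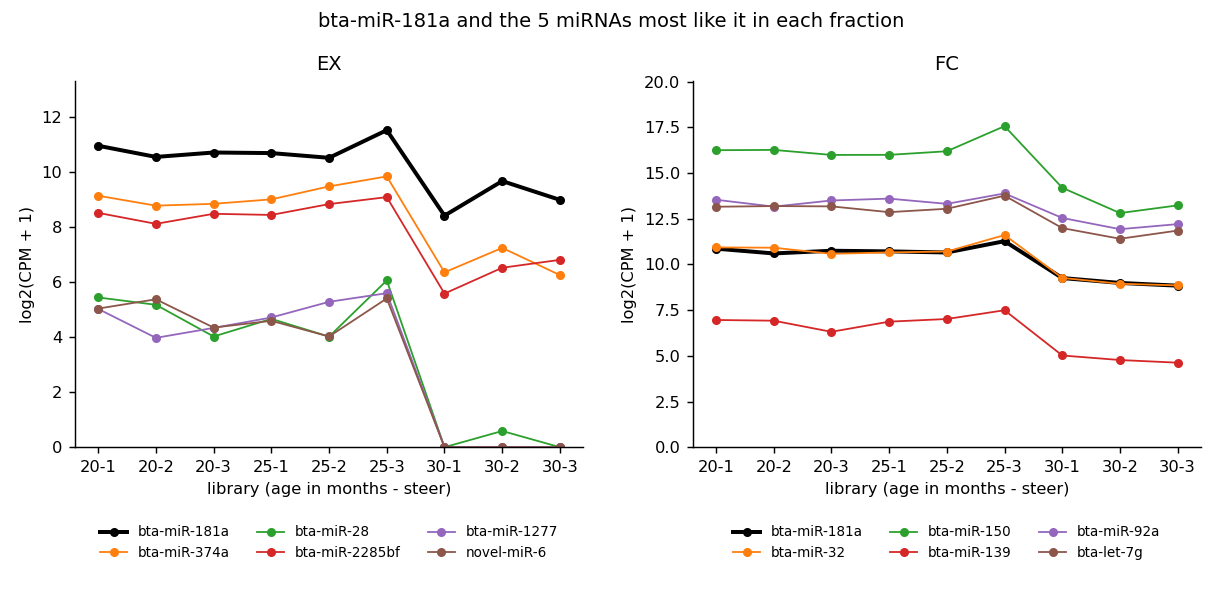
log2(CPM + 1) of bta-miR-181a (black, thick) and of the 5 miRNAs with the highest Pearson r to it in EX (left) and FC (right), by library in order of age and steer. The lines step down from 25 to 30 months in both fractions, and in EX 3 of the 5 lie at or near 0 at 30 months.

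Levels of miRNAs that mark the cell types that feed plasma are given beside these results, for lists chosen by known cell type. Calls are for 30 against 25 months unless another comparison is named. There, 10.4% of all miRNAs were called lower and 3.77% higher in EX, and 10.1% and 5.59% in FC. The 3 lymphocyte miRNAs (bta-miR-150, bta-miR-342 and bta-miR-155) were called lower at 30 than at 25 months in both fractions. At 30 against 20 months bta-miR-150 and bta-miR-342 were called lower in EX, beside 9.86% of all miRNAs. In FC only bta-miR-150 was then called lower, beside 4.19%. The summed level of the 3 was 115350 to 327337 CPM at 25 months and 14429 to 28250 CPM at 30 months in EX, and 82176 to 233288 CPM and 15335 to 28035 CPM in FC. In FC bta-miR-342 fell by 1.81 (SE 0.49, FDR 0.0353) and bta-miR-155 by 1.33 (SE 0.38, FDR 0.0420). The latter acts in activated lymphocytes and is also counted among myeloid and inflammatory miRNAs. Of the 2 miRNAs shared by blood cells, bta-miR-142-3p and bta-miR-142-5p, 2 were called lower in EX and 1, bta-miR-142-3p, in FC.

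The myeloid miRNA bta-miR-223 was called in neither fraction, at 9652 to 38157 CPM at 25 months and 25337 to 29918 CPM at 30 months in EX, and at 13252 to 47324 and 48799 to 59516 CPM in FC. Of 3 red cell miRNAs 1, bta-miR-451, was called lower in EX and 0 in FC by edgeR, and the summed level was 28558 to 92244 CPM at 25 months and 34776 to 54074 CPM at 30 months in EX. Of 2 hepatocyte miRNAs 0 were called in EX and 1, the low bta-miR-885, was called lower in FC, while bta-miR-122, which carries most of the list, was not called (log2 fold change 1.04 in EX, FDR 0.166, and 0.72 in FC, FDR 0.287). Neither of the 2 endothelial miRNAs was called at 30 against 25 months. At 30 against 20 months bta-miR-126-3p was called higher in EX, beside 3.48% of all miRNAs, and neither was called in FC. Of 6 epithelial miRNAs 1, bta-miR-141, was called higher in FC and 0 in EX. The summed level of the 6 was 4361 to 9175 CPM at 25 months and 11697 to 16958 CPM at 30 months in EX, and 3776 to 10429 CPM and 11730 to 19906 CPM in FC. bta-miR-141 had the largest part of it, with means of 3478 and 7171 CPM in EX and 4138 and 9164 CPM in FC. The fitted change of bta-miR-205 went the other way, at −0.28 (SE 0.27, FDR 0.557) in EX and −0.57 (SE 0.28, FDR 0.189) in FC. 0 of the 5 muscle miRNAs that were tested, of 7 listed, were called, with bta-miR-208a listed at 0 in 3 of the 6 groups of libraries. bta-miR-885 and bta-miR-208a are named here after their values were seen. The part of any of these cell types in the values of the miR-181 family was not tested.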

How the data were processed

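Small RNA libraries of EX and FC plasma RNA from 3 steers at 3 ages were analysed. Per the labels and the study's methods, the authors trimmed reads with Cutadapt 5.0 and Trimmomatic 0.39, checked them with FastQC 0.12.1, mapped them to a resequenced Japanese Black genome and assigned them to mature miRNAs with the quantifier of miRDeep2. The deposited values are expected counts, which need not be whole, and a second deposited table holds CPM, each count per 1000000 counts of its library, with a row of totals that was left out.

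In 4 FC libraries (25 months steer 3 and all of 30 months) the lower rows of the count table were displaced by 1 against the CPM table. No member lies there. Counts that differed from the CPM value times the library total by more than a relative 0.001 or 0.02 counts were recomputed from it. Rows were otherwise used as deposited.

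A miRNA was kept in a fraction when 3 or more of its 9 libraries exceeded 5 CPM. Counts were then rounded, normalized by TMM and tested by quasi-likelihood in edgeR 4.0.16 (R 4.3.3, limma 3.58.1) with age and steer in the model. Comparisons of fractions used all 18 libraries with fraction by age and steer. SE was obtained from the F statistic and the log2 fold change. DESeq2 1.42.0 was an alternative, with other scalings and filters, the likelihood ratio test, no steer term and each steer left out. In further settings the displaced FC count rows were left uncorrected, or the EX rows were exchanged. Permutation tests and figures used Python 3.11.15, pandas 2.3.3, numpy 2.4.6 and matplotlib 3.10.9. The test was tried on simulated data with known changes before use.

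The replicate number was taken as the steer, since the study numbers the plasma samples of the same 3 animals by age and animal in the same way and tested ages as pairs. The labels do not state it. Deviations from the age means of a fraction correlated at 0.0262 on average between libraries of the same steer in EX and at 0.134 in FC, against −0.0131 and −0.0670 for different steers. No library is a copy of another, since chi-square per degree of freedom was 181 or more in the 18 pairs of libraries of one group. P values of the age fits measure the spread of single libraries that is left after age and steer are fitted. They rest on 3 steers. In the main comparisons of fractions the EX and FC libraries of a plasma sample were treated as separate, with only steer shared.

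The members and lists were chosen with earlier results of these data known. The miRNAs named are the 4 members, bta-miR-192, bta-miR-194 and bta-miR-194b, the 5 non-members most correlated with bta-miR-181a in each fraction, and list members above a mean of 1000 CPM. Carcass records and qPCR were not analysed here.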

Additional observations from a re-analysis of the deposited data

How the results depend on the processing

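At 30 against 25 months the fall of bta-miR-181a kept its direction under every alternative run in both fractions, with log2 fold changes of −2.95 to −1.88 in EX and −2.26 to −1.47 in FC when 1 steer was left out, and −2.45 to −1.86 and −2.08 to −1.86 under the others. The fall of bta-miR-181b in FC did so too, between −1.74 and −1.26 with 1 steer left out. The number of members called at 30 against 25 months went from 1 to 2 in EX with the likelihood ratio test, by bta-miR-181d, and with the rows exchanged, by bta-miR-181b. It was 0 to 1 with 1 steer left out. In FC it went from 2 to 4 with DESeq2 and with the likelihood ratio test, and was 1 to 3 with 1 steer left out. At 30 against 20 months it became 2 in EX with DESeq2 and with the likelihood ratio test, by the row of bta-miR-181b as deposited, and 0 to 1 with 1 steer left out. In FC it was 0 with the displaced FC count rows left uncorrected and 0 to 2 with 1 steer left out. At 25 against 20 months it was 0 to 1 in EX with 1 steer left out, by the same row. Between EX and FC it became 1 at 20 months with DESeq2, 0 at 25 and 30 months with the rows exchanged, and 0 to 1 at 25 months with 1 steer left out. Of the values of single members between settings, 415 kept direction and side of the threshold, 12 passed it, 15 lost it and 28 changed sign. The cause of these moves was not tested. Over all miRNAs, at 30 against 25 months, 85 were called in EX with DESeq2 and 90 with the likelihood ratio test, in place of 49. In FC 10 were called with the displaced count rows left uncorrected, in place of 56. At 30 against 20 months 78, 83 and, with totals only, 28 were called in EX in place of 46. In FC 52 were called with DESeq2 and with no filter, 53 with the likelihood ratio test and 2 with the displaced count rows left uncorrected, in place of 25. Between EX and FC at 20 months 7 were called with DESeq2, with the likelihood ratio test and with the plasma sample as block, and 2 without a block, in place of 4. For the difference of the falls it was 38 with DESeq2 and 16 with the plasma sample as block, in place of 25.

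With the EX rows exchanged, bta-miR-181b in EX became −1.55 at 30 against 25 months and −1.18 at 30 against 20 months, and the difference of the falls, EX minus FC, became −0.14. The other changes of sign were of values that were not called. bta-miR-181c in EX at 30 against 25 months became 0.25 without the replicate block and was −5.60 to 1.15 with 1 steer left out. At 25 against 20 months, with 1 steer left out, bta-miR-181a was −0.12 to 0.58 in EX and −0.087 to 0.51 in FC, and in FC bta-miR-181b was −0.11 to 0.29, bta-miR-181c −0.0056 to 0.22 and bta-miR-181d −0.078 to 0.39. bta-miR-181c there became −0.046 with library totals only. Between EX and FC at 20 months bta-miR-181a became 0.048 with DESeq2 and with RLE factors and 0.018 with totals only. It became 0.012 with the displaced FC count rows left uncorrected and 0.027 with the EX rows exchanged, and was 0.032 to 0.11 with 1 steer left out. At 25 months it was −0.00063 to 0.36 with 1 steer left out, and bta-miR-181d became −0.050 with the likelihood ratio test and −0.39 with the plasma sample as block. At 30 months bta-miR-181a became 0.080 with totals only, and bta-miR-181c became −2.12 with the plasma sample as block and was −7.28 to 0.91 with 1 steer left out. In the difference of the falls bta-miR-181a became 0.0092 with totals only, and bta-miR-181c became −0.43 with the plasma sample as block and was −5.96 to 2.64 with 1 steer left out. Without steer 3 the EX libraries at 30 months left for bta-miR-181c are all listed at 0, so −7.28, −5.96 and the −5.60 above are set by the prior count of the fit and measure no fold.

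Without the replicate block for steer, the members called stayed at 1 in EX and 2 in FC at 30 against 25 months, and the log2 fold change of bta-miR-181a was −2.41 in EX (edgeR FDR 0.00323) and −2.08 in FC (edgeR FDR 0.00282). Pairing by steer or by plasma sample moved no count of members called, with 1 called at 25 and 30 months between EX and FC and 0 in the difference of the falls under each. At 30 months bta-miR-181c rested on 15 to 20 counts per FC library, which limits the precision of its values.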
